A study of Mus musculus with 12 samples.

Results

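The genes of mitochondrial and peroxisomal fatty acid oxidation were examined in mouse brown adipose tissue with and without a SIRT1 transgene. The set holds 39 named genes, 18 mitochondrial and 21 peroxisomal, each found by its gene symbol in the platform annotation and measured with its brightest probe on average over the arrays. Of the 39 genes, 38 had a probe and 36 were tested (16 mitochondrial and 20 peroxisomal), out of 8035 genes tested among 16593 with a probe. Hadha, the alpha subunit of the mitochondrial trifunctional protein, had no probe under 1 gene symbol. Cpt1a, the liver form of carnitine palmitoyltransferase 1, was detected on 1 of 12 arrays and Crot, the peroxisomal carnitine octanoyltransferase, on 0 of 12, so neither was tested.

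Fatty acids are the main fuel of brown fat, a tissue that turns the energy of oxidation into heat through the uncoupling protein UCP1. Acyl groups enter mitochondria through the carnitine shuttle and are shortened by a spiral of dehydrogenation, hydration, a second dehydrogenation and thiolysis, with the electrons of the first step passed to the respiratory chain by the electron transfer flavoprotein. Peroxisomes run a parallel spiral on very long-chain and branched acyl groups, whose first oxidase makes hydrogen peroxide that catalase removes, and the peroxins build the organelle and import its enzymes. SIRT1 is an NAD+-dependent deacetylase whose known targets include PGC-1alpha, a coactivator of the PPAR and estrogen-related receptors that act on many of these genes.

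Total RNA of brown adipose tissue was hybridised to Illumina bead arrays, 6 from wild-type mice (WT) and 6 from SIRT1tg mice, whose strain label is SIRT1Tg/Tg. All were 3 months old and of the C57Bl/6N background. The driver of the transgene and the number of founder lines are not given in the sources used here. Whether each array stands for its own animal is not stated in the labels. The p-values therefore rest on the spread among these arrays alone, and the precision is limited by their number. The array columns carry a number of unstated meaning that falls into a low and a high range, with 3 arrays of each group in each. The arrays were renumbered here from WT 1 to WT 6 and from SIRT1tg 1 to SIRT1tg 6 in the order of these numbers, 1 to 3 being the low range, and these names are not the labels' replicates.

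Sirt1 signal checked the labels. Its normalised log2 signal was 6.43 at the lowest, 6.86 at the median and 7.27 at the highest in WT and 7.97, 8.23 and 8.58 in SIRT1tg, so the groups did not overlap (log2 difference 1.37 ± 0.14 SE, limma adjusted p = 0.00049). Whether this probe also reads the transgene is not stated in the labels. Of 14 brown adipocyte markers 13 were tested, Dio2 not being detected, and none passed the test between groups. Ucp1 had a log2 signal of 13.40 ± 0.40 in WT and 13.52 ± 0.15 in SIRT1tg (SD, n = 6). Skeletal muscle markers varied widely. Of 25 listed, 20 were tested and 19 were lower in SIRT1tg (median log2 difference -1.05, none past the test), and their mean centred log2 signal ran from -1.57 to 2.38 in WT, with 4 arrays above the mean, and from -1.52 to 2.64 in SIRT1tg, with 1 above it. Macrophage markers (9 of 10 lower in SIRT1tg), fibroblast markers (8 of 8 lower) and endothelial markers (7 of 10 higher), white adipocyte markers (4 of 4 lower) and red cell markers (3 of 3 higher) also leaned one way, and none of them passed. The mean centred signal of the fibroblast markers did not overlap between the groups (-0.10 to 0.70 in WT, -0.37 to -0.12 in SIRT1tg). Those of the other cell types overlapped. An unadjusted p under 0.05 was reached by 5 of 8 fibroblast, 5 of 10 macrophage, 4 of 10 endothelial and 2 of 4 white adipocyte markers. It was reached by 0 of 20 muscle and 0 of 3 red cell markers, against 15.2% of all genes. Blocking on the number range brought 1 white adipocyte and 2 endothelial markers past the test, and 0 markers of the other cell types listed. The part of these other cell types in the results that follow was not tested, except where a value with the muscle signal in the fit, or without the arrays above its mean, is given.

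Hadh, Cat and Hadhb are shown with the bases before their transcription start, because the widest differences between the genotypes among the enzymes were those of Hadh and Cat, and because Hadhb shares its start region with the unmeasured Hadha. The sequences are RefSeq's on GRCm38.p6, read 5′ to 3′ along the gene's strand, and capitals mark the CCAAT box, the GC box (GGGCGG) and the nuclear receptor motif AGGTCA on either strand. For Hadh (chr3:131272102-131272351, minus strand) and Cat (chr2:103485154-103485403, minus strand) they are the 250 bases before the start. For Hadhb they are the 228 bases (chr5:30155003-30155230, plus strand) that its window has in common with that of Hadha, which starts 273 bases away on the opposite strand.
Hadh: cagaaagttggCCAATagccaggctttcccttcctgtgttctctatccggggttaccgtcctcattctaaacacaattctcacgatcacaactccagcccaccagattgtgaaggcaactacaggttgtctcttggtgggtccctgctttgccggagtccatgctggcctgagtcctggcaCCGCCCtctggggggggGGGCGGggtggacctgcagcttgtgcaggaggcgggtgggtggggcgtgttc
Cat: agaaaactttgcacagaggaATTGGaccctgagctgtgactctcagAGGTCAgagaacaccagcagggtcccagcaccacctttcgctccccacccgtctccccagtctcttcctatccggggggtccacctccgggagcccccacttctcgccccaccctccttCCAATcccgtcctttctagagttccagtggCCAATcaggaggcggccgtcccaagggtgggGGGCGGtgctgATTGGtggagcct
Hadhb: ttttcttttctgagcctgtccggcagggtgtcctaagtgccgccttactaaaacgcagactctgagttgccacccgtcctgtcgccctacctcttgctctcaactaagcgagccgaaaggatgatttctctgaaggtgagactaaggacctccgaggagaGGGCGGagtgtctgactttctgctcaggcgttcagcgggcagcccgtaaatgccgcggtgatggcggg
The Hadh stretch holds 1 CCAAT box and 2 GC boxes, the Cat stretch 4 CCAAT boxes, 1 GC box and 1 copy of AGGTCA, and the stretch between Hadha and Hadhb 1 GC box. Over windows from 250 bases before to 50 after the start, 32 of the 39 members could be searched on both strands. AGGTCA lay in 6 of them (Acadm, Acadvl, Cat, Cpt1a, Echs1 and Scp2), or 18.8%, against 18.13% of all 27025 genes with a window and 14.95% of the genes tested. The direct repeat of AGGTCA with 1 base of any kind between the copies, to which PPAR with its RXR partner binds, was in 0 members. It was in 0.05% of all genes and 0.03% of the genes tested. The estrogen-related receptor letters TNAAGGTCA, which contain AGGTCA too, were in 0 members, 1.43% of all genes and 0.99% of the genes tested. The E-box CACGTG was in 0 members, 8.09% of all genes and 12.05% of the genes tested. The NRF1 motif, GCGCA and GCGC with 1 base of any kind between them, was in 3 members (Abcd3, Etfb and Etfdh), or 9.4%, against 5.19% of all genes and 12.13% of the genes tested, and the CCAAT box in 13 (40.6%, against 41.06% of all genes and 43.22% of the genes tested). The GC box lay in 26 (81.2%), against 38.2% of all genes and 69.24% of the genes tested here that had a window. These counts describe letters in a window and not bound sites.

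No member passed the test between SIRT1tg and WT. The count was 0 of 36 at an adjusted p under 0.05, against 0.149% of all genes tested. At an unadjusted p under 0.05 there were 5 members, Hadh, Hadhb and Cat being higher in SIRT1tg and Abcd2 and Abcd3 lower, which is a share below the background of 15.2% of all genes. The groups did not overlap for 0 members, against 1.32% of all genes. The lowest adjusted p of a member was 0.171, for Abcd2. In these bulk samples fewer cells of a type and less RNA per cell cannot be told apart.

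The differences were small in both compartments. The median log2 difference (SIRT1tg minus WT) was 0.02 over the 16 mitochondrial members, of which 11 were higher and 5 lower, and -0.02 over the 20 peroxisomal members, of which 8 were higher and 12 lower. Over all genes it was -0.01, with 47% of genes higher in SIRT1tg. Median scaling in place of quantile normalisation moved the medians to -0.03 for the mitochondrial members, -0.12 for the peroxisomal members and -0.10 for all genes and left 29.8% of all genes higher. Under it 8 of 36 members were higher instead of 19, so the direction of members close to 0 depends on the scaling. The 95% interval of the log2 difference lay within ±0.5 (a fold of 1.41) for 31 of 36 members, or 86.1%, against 73.2% of all genes. These intervals bound what 6 arrays per group could miss and do not show equal levels. Of the members, 6 (Slc25a20, Acadvl, Acadm, Etfa, Etfb and Hadhb) lay above the 99th percentile of mean signal.

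**Figure D1:**
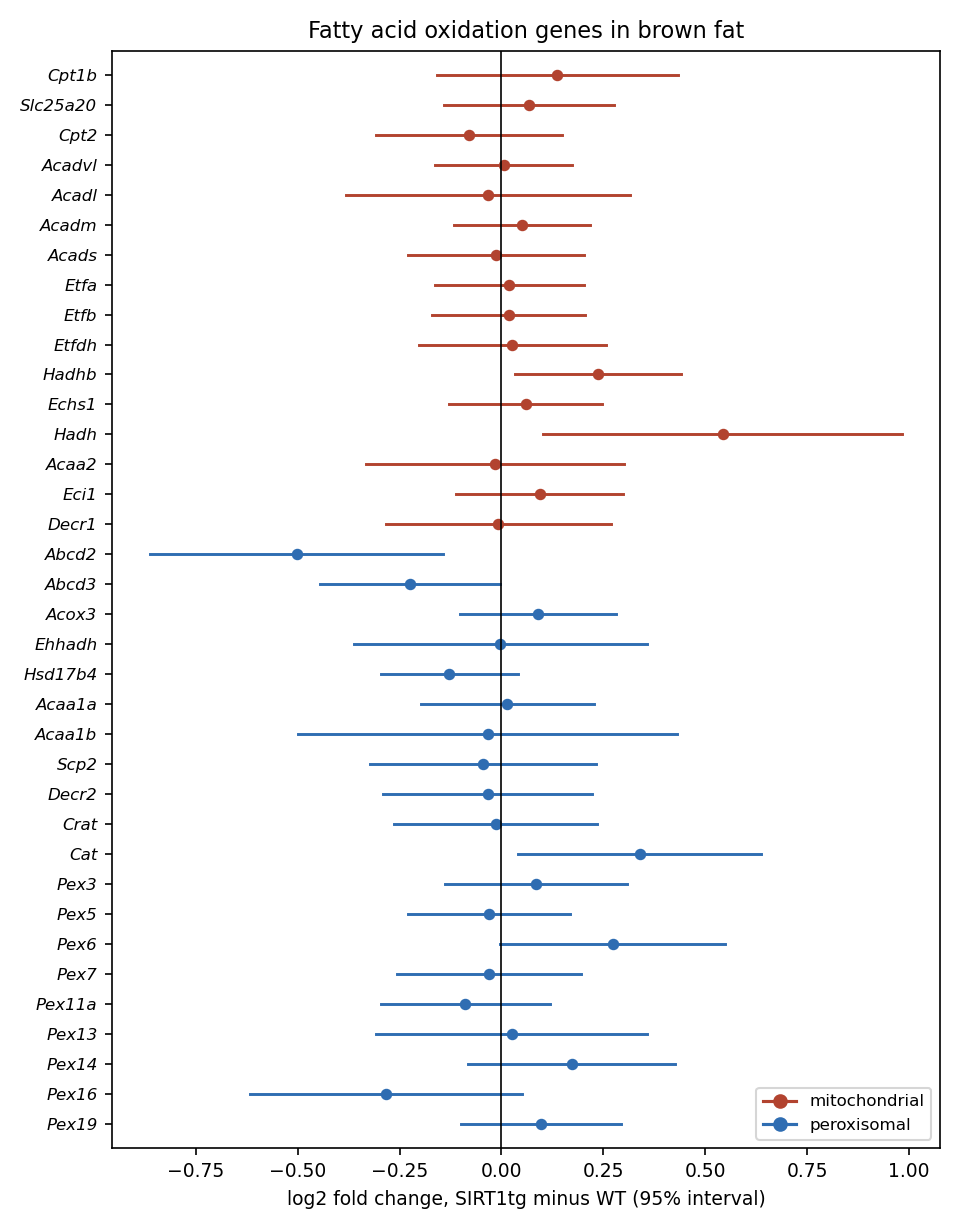
Log2 fold change of 36 fatty acid oxidation genes, SIRT1tg minus WT, ordered by role, as points with 95% intervals (horizontal axis, log2 scale; 6 arrays a group). Most points lie near 0, with Hadh (0.54), Cat (0.34) and Hadhb (0.24) to the right and Abcd2 (-0.50) to the left.

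The carnitine shuttle came out with no call. Cpt1b, the muscle and brown fat form of the outer membrane transferase that commits acyl groups to oxidation, had log2 signals of 11.18, 11.45 and 11.90 in WT and 11.30, 11.58 and 12.04 in SIRT1tg (lowest, median and highest of 6). The groups overlapped over most of their range (log2 difference 0.14 ± 0.14 SE, adjusted p = 0.705). Cpt2, the inner membrane transferase that returns the acyl group to coenzyme A, had 11.60, 11.74 and 12.06 in WT and 11.60, 11.67 and 12.01 in SIRT1tg (difference -0.08 ± 0.11, adjusted p = 0.782). The lowest arrays of both groups were level and the highest nearly so. Slc25a20, the carnitine-acylcarnitine carrier of the inner membrane, differed by 0.07 (95% interval -0.14 to 0.28).

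The 4 acyl-CoA dehydrogenases open each turn of the spiral and differ in the chain length they prefer. On their brightest probes they lay between -0.03 and 0.05. Acadm, the medium-chain enzyme, had 13.62, 13.83 and 13.91 in WT and 13.79, 13.84 and 13.96 in SIRT1tg (0.05 ± 0.08, adjusted p = 0.818). Acadl, the long-chain enzyme, had 10.13, 10.53 and 10.76 in WT and 10.05, 10.49 and 10.87 in SIRT1tg (-0.03 ± 0.16, adjusted p = 0.955). For both enzymes the groups overlapped, and Acadl had the wider spread. Acadvl, the very long-chain enzyme, differed by 0.01 (-0.16 to 0.17) and Acads, the short-chain enzyme, by -0.01 (-0.23 to 0.20). Other probes of these genes did not all follow. The 2 dimmer probes of Acadl differed by 0.50 and 0.17 and the dimmer probe of Acads by -0.36, with adjusted p over all 10771 probes of 0.194, 0.406 and 0.193. The dimmer probe of Acadm differed by 0.19 (adjusted p = 0.512 over all probes).

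The electron transfer genes were close to 0 on their brightest probes. Etfa and Etfb, the subunits of the electron transfer flavoprotein, differed by 0.02 each. The dimmer probes of Etfa differed by 0.27, 0.20 and 0.03 (adjusted p = 0.378, 0.478 and 0.936 over all 10771 probes). The dimmer probe of Etfb differed by 0.06. Etfdh, the membrane dehydrogenase that hands the electrons to ubiquinone, had 11.28, 11.62 and 11.92 in WT and 11.55, 11.64 and 11.79 in SIRT1tg (0.03 ± 0.11, adjusted p = 0.941). The WT arrays spread further to both sides than the SIRT1tg arrays. A dim second probe of Etfdh differed by 0.73 ± 0.17 SE (means 5.27 and 6.00), and its adjusted p of 0.0643 was the lowest of the 67 detected probes of members over all 10771 probes. Of 21 members with more than 1 detected probe, 12 had the same sign on every probe and 9 did not.

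The later steps of the spiral held the mitochondrial members with the smallest p. Hadh, the short-chain 3-hydroxyacyl-CoA dehydrogenase, had log2 signals of 5.70, 6.45 and 6.92 in WT and 6.32, 6.87 and 7.33 in SIRT1tg. The groups overlapped, and 3 SIRT1tg arrays lay above every WT array, the third of them only marginally. The means were 6.38 ± 0.43 and 6.92 ± 0.38 (SD, n = 6), a log2 difference of 0.54 ± 0.21 SE (95% interval 0.10 to 0.98, a fold of 1.46, adjusted p = 0.217). The exact two-sided permutation p was 0.0455, and 0.339 adjusted over all genes. A second Hadh probe, detected on 6 of 12 arrays, differed by 0.03. The size of the Hadh difference depended on the processing, being 0.29 without background correction, 0.40 with an offset of 50 and 0.29 for the mean of its probes. With the muscle signal as a covariate it was 0.75 (adjusted p = 0.0471), the one setting in which a member passed. Without the 5 arrays above the mean muscle signal it was 0.94 (adjusted p = 0.144). These were 4 WT arrays and 1 SIRT1tg array, so here and below this setting has WT 3 and WT 6 alone for WT. Hadh was at 6.10 and 5.70 on them, the lowest values of WT.

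Hadhb, the beta subunit of the trifunctional protein, which carries the long-chain thiolase, had 12.59, 12.69 and 13.05 in WT and 12.80, 12.97 and 13.13 in SIRT1tg. All SIRT1tg arrays lay above 5 of the 6 WT arrays, and the overlap came from 1 array, WT 4. The log2 difference was 0.24 ± 0.10 SE (0.03 to 0.44, a fold of 1.18, adjusted p = 0.251, exact permutation p = 0.0238, or 0.265 adjusted over all genes). Without WT 4 it was 0.30 and under median scaling 0.13. Without the 5 arrays of high muscle signal, WT 4 among them, it was 0.36. Echs1, the short-chain enoyl-CoA hydratase, differed by 0.06 and Acaa2, the mitochondrial thiolase, by -0.02. Eci1, the isomerase that lets unsaturated chains into the spiral, had 12.01, 12.13 and 12.46 in WT and 12.21, 12.28 and 12.41 in SIRT1tg (0.09 ± 0.10, adjusted p = 0.708). The SIRT1tg arrays fell inside the WT spread. Decr1, the dienoyl-CoA reductase that serves the same purpose, differed by -0.01.

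The 2 peroxisomal transporters were both lower in SIRT1tg without passing the test. Abcd2, a transporter of very long-chain acyl-CoA, had 6.75, 7.56 and 7.82 in WT and 6.65, 6.87 and 7.25 in SIRT1tg. The lowest WT array, WT 2, lay among the SIRT1tg arrays, while 4 of the WT arrays lay above all of them. The means were 7.43 ± 0.40 and 6.93 ± 0.23, a log2 difference of -0.50 ± 0.17 SE (-0.86 to -0.14, a fold of 0.706, adjusted p = 0.171, exact permutation p = 0.0325, or 0.296 adjusted over all genes). Its other probe differed by -0.41 ± 0.21 SE, and without background correction the tested probe differed by -0.32. Abcd3, a related transporter of long-chain and branched acyl groups, had 11.78, 12.15 and 12.27 in WT and 11.73, 11.87 and 12.10 in SIRT1tg. The groups overlapped between the lowest WT and the highest SIRT1tg array (-0.22 ± 0.10, adjusted p = 0.315, exact permutation p = 0.0433, or 0.335 adjusted over all genes), and without the 5 arrays of high muscle signal the difference was -0.13.

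The 7 peroxisomal spiral enzymes tested lay between -0.13 and 0.09. Ehhadh, the bifunctional enzyme of the straight-chain branch and a known PPARalpha target, had 8.60, 9.34 and 9.59 in WT and 8.70, 9.27 and 9.46 in SIRT1tg (-0.00 ± 0.17, adjusted p = 0.997). The WT arrays enclosed the SIRT1tg arrays. Hsd17b4, the second bifunctional enzyme, gave the largest size of the 7 at -0.13 (-0.30 to 0.04, adjusted p = 0.495). Its exact permutation p was 0.0368, or 0.313 adjusted over all genes. The thiolases Acaa1a and Acaa1b are near-identical copies, so their probes may each take signal from the other gene. Acaa1a had 11.29, 11.37 and 11.58 in WT and 11.13, 11.47 and 11.63 in SIRT1tg (0.01 ± 0.10, adjusted p = 0.970). Acaa1b had 9.13, 10.36 and 10.75 in WT and 9.76, 10.16 and 10.45 in SIRT1tg (-0.03 ± 0.22, adjusted p = 0.968). The low value of Acaa1b came from 1 array, WT 1, and without it the difference was -0.25. Acox3, an oxidase of branched acyl groups, differed by 0.09, Scp2, a thiolase and sterol carrier, by -0.05 and Decr2, the peroxisomal dienoyl-CoA reductase, by -0.03.

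Crat, the carnitine acetyltransferase found in peroxisomes and mitochondria, had 10.83, 11.06 and 11.37 in WT and 10.91, 10.99 and 11.44 in SIRT1tg (-0.01 ± 0.12, adjusted p = 0.974). Both groups covered nearly the same range. Cat, catalase, had 9.06, 9.55 and 9.83 in WT and 9.72, 9.77 and 10.15 in SIRT1tg. The WT arrays split into 3 low and 3 high, and only the low ones lay below all SIRT1tg arrays. The means were 9.51 ± 0.33 and 9.84 ± 0.16, a log2 difference of 0.34 ± 0.14 SE (0.04 to 0.64, a fold of 1.27, adjusted p = 0.261, exact permutation p = 0.0714, or 0.394 adjusted over all genes).

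The 9 peroxins, of which 5 were higher and 4 lower in SIRT1tg (median 0.02), had no member at an unadjusted p under 0.05. Pex6, an ATPase that recycles the import receptor, had 10.53, 10.88 and 11.01 in WT and 10.74, 11.11 and 11.41 in SIRT1tg (0.27 ± 0.13, adjusted p = 0.334). Of the 6 SIRT1tg arrays, 3 lay above all of the WT arrays. Pex16, a factor of membrane assembly, had 8.81, 9.17 and 9.85 in WT and 8.71, 8.86 and 9.24 in SIRT1tg (-0.28 ± 0.16, adjusted p = 0.434). Its difference was -0.16 without WT 3. It was -0.59 without the 5 arrays of high muscle signal, where WT 3 and WT 6 alone stood for WT. Pex11a, a peroxisome proliferation factor, had 9.43, 9.63 and 9.80 in WT and 9.31, 9.51 and 9.71 in SIRT1tg (-0.09 ± 0.10, adjusted p = 0.728). For Pex16 and Pex11a the groups overlapped, and the 2 dimmer probes of Pex11a differed by 0.27 and -0.09. Of the docking and import factors, Pex14 differed by 0.17, Pex13 by 0.02, the receptor Pex5 by -0.03 and the receptor Pex7 by -0.03. Of the membrane biogenesis factors, Pex3 differed by 0.08 and Pex19 by 0.10.

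**Figure D2:**
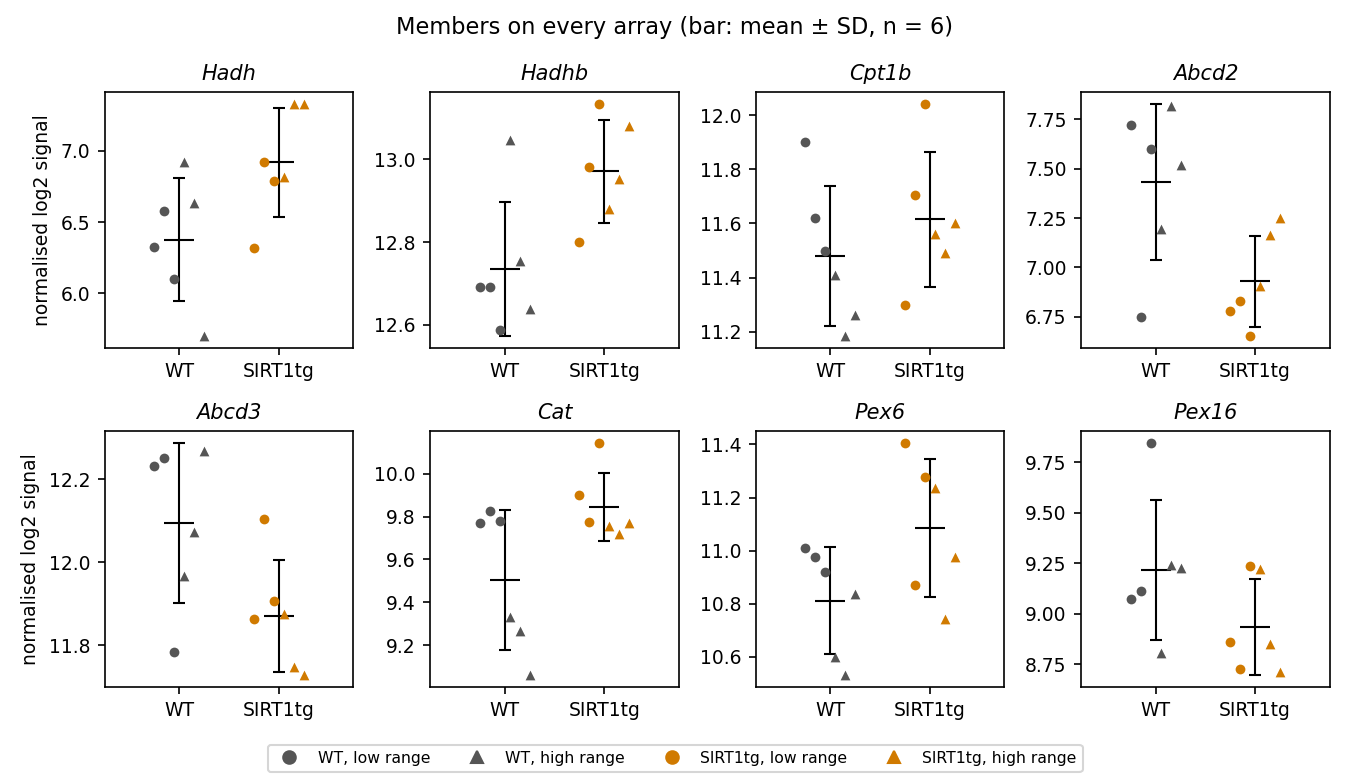
Normalised log2 signal (vertical axes) on every array for 8 members, with circles for the low and triangles for the high number range and bars for mean ± SD of 6 arrays. The groups overlap in every panel, as for Hadhb, where 1 WT array reaches 13.05 against 12.80 to 13.13 in SIRT1tg.

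Averaged over members, the mitochondrial genes had a mean centred log2 signal from -0.13 to 0.08 on the WT arrays and from -0.10 to 0.10 on the SIRT1tg arrays, with 1 of 6 WT and 5 of 6 SIRT1tg arrays above 0. The difference of the means was 0.07, next to an SD between replicates of 0.07. It lay above the median member difference of 0.02, Hadh being the largest at 0.54. The peroxisomal genes ran from -0.10 to 0.17 in WT and from -0.05 to 0.06 in SIRT1tg, a difference of -0.02 with an SD of 0.08. Both signals overlapped between the groups, and the SD is that of single arrays, not the error of a difference. In the low range the mitochondrial signal was -0.02, 0.08 and -0.07 in WT and -0.10, 0.02 and 0.10 in SIRT1tg. In the high range it was -0.05, -0.13 and -0.02 against 0.04, 0.06 and 0.09, without overlap. Of the 16 mitochondrial members 8 were higher in SIRT1tg in the low and 13 in the high range. Over all 8035 genes these counts were 4033 and 3788. This split was not tested. The mitochondrial minus the peroxisomal signal was 0.09 higher in SIRT1tg, and the groups overlapped (-0.23 to 0.05 in WT, -0.06 to 0.12 in SIRT1tg). The brown adipocyte markers spanned -0.27 to 0.28 on the same scale.

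**Figure D3:**
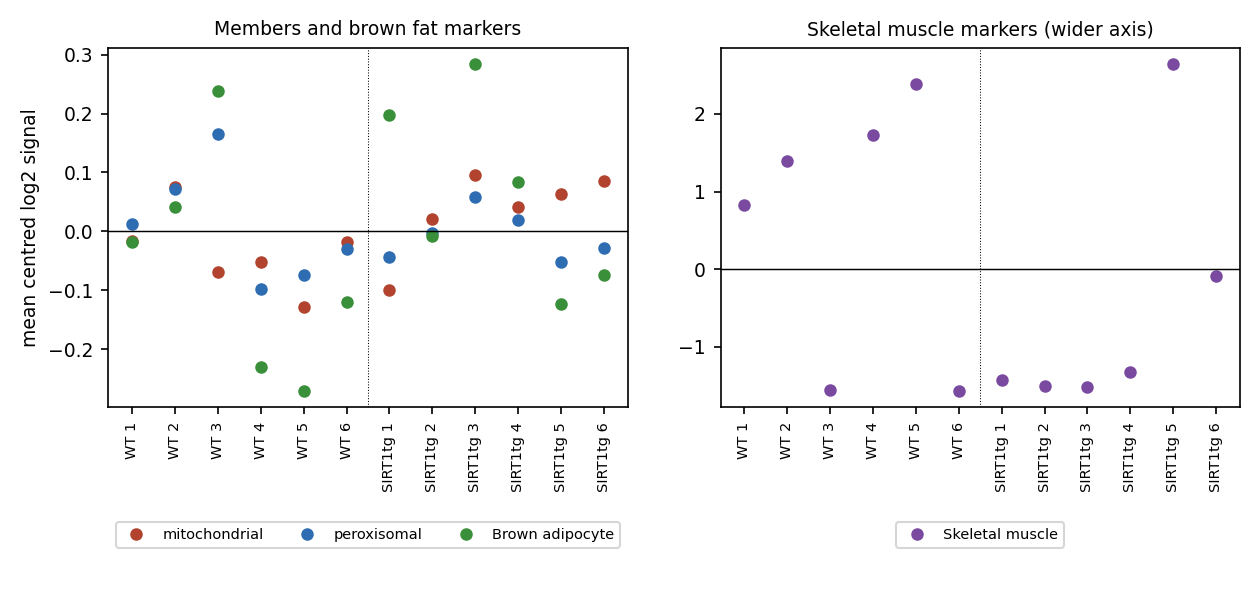
Mean centred log2 signal (vertical axes) of the mitochondrial members, the peroxisomal members and the brown adipocyte markers on each array, and of skeletal muscle markers on a wider axis, where 5 of 12 arrays stand above 0. The members stay between -0.13 and 0.17, while the muscle markers run from -1.57 to 2.64.

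By number range, 0 members passed with the range as a block, against 1.05% of all genes, and the lowest such adjusted p was 0.0975 for Cat. Within the low range and within the high range 0 members passed (0.0622% and 0.0249% of all genes), and 0 passed the interaction of genotype and range (0.0124% of all genes). At an unadjusted p under 0.05 the interaction held 3 members, Acadl, Cat and Pex13, against 7.37% of all genes. The sign of the difference was the same in both ranges for 7 of 16 mitochondrial and 16 of 20 peroxisomal members, against 59% of all genes. Of the mitochondrial members that changed sign, Acadl lay furthest from 0 in both ranges. The median difference of the mitochondrial members was 0.00 in the low range and 0.09 in the high range, and that of the peroxisomal members was -0.04 and -0.01.

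Of all 36 members 23 had the same sign in both ranges, or 63.9%, against 59% of all genes. The members given next are among those with the smallest p over all arrays. Their difference over all arrays is the mean of those in both ranges, so a shared sign is no separate evidence. Abcd2 was lower by -0.60 ± 0.23 SE in the low and -0.40 ± 0.23 in the high range, and Abcd3 by -0.13 ± 0.14 and -0.32 ± 0.14. Hadh was higher by 0.34 ± 0.28 and 0.74 ± 0.28, Hadhb by 0.31 ± 0.13 and 0.16 ± 0.13 and Pex6 by 0.22 ± 0.16 and 0.33 ± 0.16. Each range rests on 3 arrays a group, and none of these differences passed on its own.

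Acadl went in opposite directions. In the low range the WT arrays were at 10.30, 10.76 and 10.76 and the SIRT1tg arrays at 10.05, 10.15 and 10.24. In the high range the WT arrays were at 10.13, 10.45 and 10.62 and the SIRT1tg arrays at 10.75, 10.75 and 10.87. The groups were apart in both ranges, SIRT1tg being the lower in the first and the higher in the second, a pattern found in 0.672% of all genes. The difference was -0.46 ± 0.15 SE in the low and 0.39 ± 0.15 in the high range, and the interaction was 0.85 ± 0.22 (unadjusted p = 0.00184, adjusted p = 0.579, limma). The other Acadl probes did not cross: one differed by 0.18 and 0.82 in the low and the high range and the other by 0.14 and 0.20. Under median scaling the high-range difference of the tested probe was 0.19.

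Cat followed its WT arrays. In the low range WT had 9.77, 9.78 and 9.83 and SIRT1tg 9.78, 9.90 and 10.15, which overlapped. In the high range WT had 9.06, 9.26 and 9.33 and SIRT1tg 9.72, 9.76 and 9.77, which did not. The difference was 0.15 ± 0.12 SE and 0.53 ± 0.12, with an interaction of 0.38 ± 0.17 (unadjusted p = 0.0443, adjusted p = 0.661). Pex13, a membrane docking factor, had -0.24 ± 0.17 and 0.29 ± 0.17 (unadjusted p = 0.0451, adjusted p = 0.661), and its second probe had 0.02 and -0.12. The 3 dimmer probes of Etfa differed by 0.00, -0.24 and -0.04 in the low range and by 0.54, 0.31 and 0.44 in the high range, with unadjusted interaction p of 0.0204, 0.0123 and 0.0307. The brightest Etfa probe had -0.04 and 0.08.

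**Figure D4:**
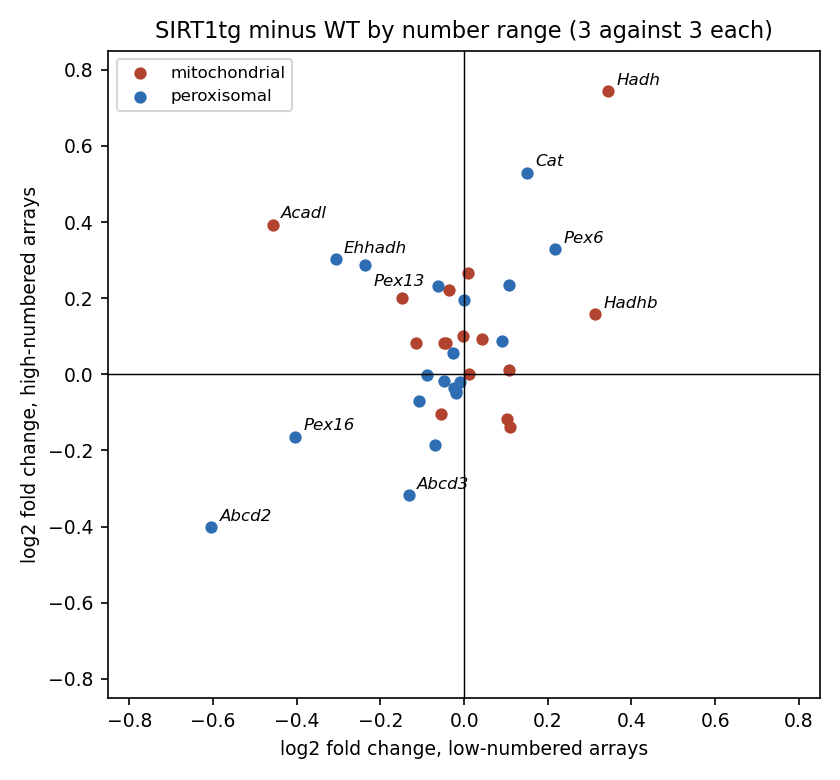
Log2 fold change, SIRT1tg minus WT, of each member in the low-numbered (horizontal axis) and the high-numbered arrays (vertical axis), 3 against 3 in each. Points at upper right and lower left kept their sign, such as Hadh (0.34 and 0.74) and Abcd2 (-0.60 and -0.40), and Acadl lies at upper left (-0.46 and 0.39).

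Set against each other with both genotypes in each, the ranges themselves differed in 2 of 36 members, or 5.56%, against 5.03% of all genes, a share near the background. In the upward direction it was 1 member, against 2.41% of all genes. Acaa2 was higher in the high range (0.42, adjusted p = 0.0341), from 11.85 to 12.32 on the low-range arrays and from 12.40 to 12.71 on the high-range arrays, which did not overlap. Of its other 3 probes, those that differed by 0.44 and 0.45 passed over all probes (adjusted p = 0.0267 and 0.0319), and the last differed by -0.01. Cat was lower in the high range (-0.38, adjusted p = 0.0418). Leaving out 1 array kept 1 or both of these calls in 5 of 12 runs and left 0 in the others. A second Cpt1b probe was lower in the high range by -0.52 (adjusted p = 0.0188 over all probes), where the brighter probe tested was at -0.26 (adjusted p = 0.216). Of the 20 peroxisomal members 15 were lower in the high range (median -0.12), among them 8 of 9 peroxins (median -0.16), and of the 16 mitochondrial members 11 were lower (median -0.04), where 4325 of all 8035 genes were lower and their median was -0.02. Beside this, the mean brown adipocyte marker signal was lower in the high range by -0.25 (11 of 13 lower, 1 past the test). The muscle marker signal was higher by 1.26 on the log2 scale (20 of 20 higher, 0 past it). Endothelial markers were lower by -0.30 (10 of 10 lower, 1 past the test), white adipocyte markers higher by 0.78 (4 of 4 higher, 0 past it) and red cell markers higher by 0.68 (3 of 3 higher, 1 past it). Macrophage markers were lower by -0.21 (10 of 10 lower) and fibroblast markers were at 0.02 (5 of 8 higher), with 0 past the test in both. The part of these markers in the range differences was not tested beyond the fit with muscle signal as a covariate, in which Acaa2 was at 0.47 (adjusted p = 0.0423) and Cat at -0.43, just short of the threshold.

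**Figure D5:**
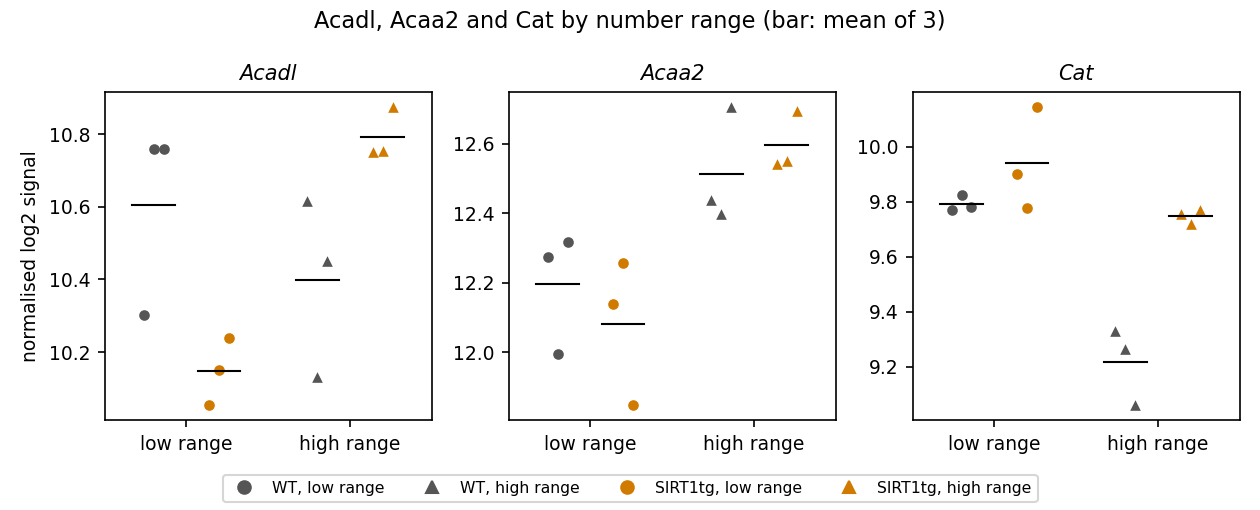
Normalised log2 signal (vertical axes) of Acadl, Acaa2 and Cat by number range, with points for single arrays and bars for the mean of 3. SIRT1tg lies below WT for Acadl in the low range and above it in the high range, Acaa2 is higher in the high range in both groups, and Cat is low in the 3 high-range WT arrays (9.06 to 9.33).

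Genes around the pathway were counted in the same fit. Of 15 tested genes of fatty acid entry and activation 10 were higher and 5 lower in SIRT1tg (median 0.04), and 0 passed in either direction. Some of these genes were read by dim probes, as Fabp4 (mean 4.53 in WT), Cd36 (4.60) and Acsl4 (4.71), where the undetected Crot probe was at 4.17. The smallest p there belonged to Acsm3, a medium-chain acyl-CoA synthetase (8.80 ± 0.47 in WT and 9.70 ± 0.46 in SIRT1tg, log2 difference 0.90 ± 0.23 SE, adjusted p = 0.0969). Of 3 genes of malonyl-CoA and carnitine supply 0 passed, the largest difference being that of Mlycd, malonyl-CoA decarboxylase, at 0.20. Of 4 genes of ketone body metabolism 0 passed (2 higher, 2 lower, median -0.01).

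Of 18 other genes of acyl-CoA and odd-chain enzymes 12 were higher and 6 lower (median 0.08), and 0 passed. An unadjusted p under 0.05 was reached by 5, a share above the 15.2% of all genes that was not tested. Acadsb, the short and branched-chain dehydrogenase of isoleucine breakdown, had 8.57 ± 0.47 in WT and 9.22 ± 0.16 in SIRT1tg (0.65 ± 0.18 SE, adjusted p = 0.110). Eci2, a second enoyl-CoA isomerase, differed by 0.33 (adjusted p = 0.156), and Echdc2 and Echdc3, members of the enoyl-CoA hydratase family, by -0.38 and 0.37 (adjusted p = 0.155 and 0.178). The directions were mixed within this group.

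Of 24 other peroxisomal enzymes and carriers 12 were higher and 12 lower (median -0.03), and 0 passed. At an unadjusted p under 0.05 there were 7, a share above the background of 15.2% of all genes that was not tested. Pxmp4, a peroxisomal membrane protein, had 7.75 ± 0.07 in WT and 8.08 ± 0.15 in SIRT1tg (0.33 ± 0.09 SE, adjusted p = 0.105). Pecr, the peroxisomal trans-2-enoyl-CoA reductase, differed by 0.44 (adjusted p = 0.106), Acot3, a peroxisomal acyl-CoA thioesterase, by -0.47 (adjusted p = 0.121) and Eci3, an enoyl-CoA isomerase, by 0.37 (adjusted p = 0.181). Of 6 other genes of peroxisome assembly and fission 5 were lower and 1 higher (median -0.09), and 0 passed. Among 16 regulators of fatty acid oxidation 11 were higher and 5 lower (median 0.06), and 1 passed, Sirt1 itself. Ppargc1a, which encodes PGC-1alpha, had log2 signals of 7.82, 8.37 and 8.85 in WT and 8.36, 9.16 and 11.14 in SIRT1tg (0.96 ± 0.38 SE, adjusted p = 0.235, exact permutation p = 0.039). The groups overlapped and 1 SIRT1tg array stood far above the rest. Ppara, Esrra and Pparg differed by 0.01, 0.11 and 0.06, and of 13 other PPAR targets 5 were higher and 8 lower (median -0.05) with 0 past the test.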

How the data were processed

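Total RNA signals were deposited as non-normalised mean bead intensity values, per the file headers, with a detection p-value per probe and array that the deposited file also gives. GenomeStudio is named in the submitters' processing notes without a version. A second deposited table held intensity values processed by the authors on a linear scale, background-subtracted (26.1% at or below 0), normalised between arrays by an unstated method and not centred. Its column medians lay between 5.705 and 5.759, while the upper quartile was 57.70 in every column and the column maxima had 1 distinct value. Columns of the first table name a group and a number, not a replicate.

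Signals were corrected and quantile-normalised with neqc (limma 3.58.1, R 4.3.3, offset 16) and put on the log2 scale. A probe was kept where its detection p was under 0.05 on 6 or more of the 12 arrays, and the brightest kept probe on average stood for its gene. Of 25697 probes 23978 had 1 gene symbol and 1719 had none. Each array had between 11221 and 12108 probes detected, and the arrays correlated pairwise at r = 0.959 to 0.990. Groups were compared with lmFit and eBayes and Benjamini-Hochberg adjustment over 8035 genes (threshold 0.05), without covariates. Exact permutation p-values are two-sided over 924 splits, adjusted over all 8035 genes, and 0.00216 is the smallest they can give. List signals are means of centred log2 signals. The code was tested on simulated data.

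Members and gene lists were chosen with earlier results of these data known. Lowest, median and highest signals were given for a fixed set of members, for the 5 smallest p in each compartment and for any member past a threshold, and up to 4 genes were named of other lists. Acaa2, Pex13, Ppara, Esrra and Pparg were chosen after their values were seen. Alternatives were other background corrections and normalisations, the processed values (floored at 16), other filters and probes, array weights, another prior, the number range, the muscle signal, leaving out each array and, added after the data were seen, dropping the 5 arrays whose muscle signal exceeded the mean. The sources used here do not tell which chip held an array.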

Additional observations from a re-analysis of the deposited data

Results flagged for a closer look

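Acadl was marked because its difference between genotypes changed sign between the number ranges, with an interaction of 0.85 on the log2 scale (unadjusted p = 0.00184, adjusted p = 0.579 over 8035 genes). Of 72 groups of 6 arrays, 4 held an array far from the others, and chance marks about 1 in 20 groups. Hadhb was at 13.05 on WT 4, where the other WT arrays lay between 12.59 and 12.75. Ehhadh was at 8.70 on SIRT1tg 1, against 9.23 to 9.46. Acaa1b was at 9.13 on WT 1, against 10.27 to 10.75, and Pex14 was at 9.35 on the same array, against 8.62 to 8.89.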

How the results depend on the processing

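Across every setting run, 0 members passed between SIRT1tg and WT except with the muscle signal as a covariate, where 1 did (Hadh, adjusted p = 0.0471), and leaving out each of the 12 arrays gave 0 in each case. Hadh, Hadhb, Cat, Abcd2, Abcd3, Pex6 and Pex16 kept their sign in every setting. The median of the mitochondrial members lay between 0.01 and 0.05 and that of the peroxisomal members between -0.04 and 0.04 when 1 array was left out. Under median scaling the peroxisomal median was -0.12. The mitochondrial median was 0.07 under cyclic loess and with the mean of a gene's probes, and the peroxisomal median was 0.02 with the latter. Between the number ranges the count of members past the test lay between 0 and 2 when 1 array was left out, and was above 0 in 5 of 12 runs. It was 1 in place of 2 under median scaling, with array weights and with the muscle signal as a covariate. The lost calls had adjusted p-values up to 0.103 (Acaa2 under median scaling), and the cause was not tested. The interaction of genotype and range was run under 4 other background corrections and normalisations and without each array, and 0 members passed. Replicate numbers of the labels are carried by the processed table alone. Same-numbered deviations there correlated from -0.13 to 0.50 and 3 of 6 WT samples matched best with their own number, a hint from the data only. Not every pair correlated, so the numbers were not taken as pairs. With the number as a replicate block 0 members passed (lowest adjusted p = 0.199), with medians of 0.02 and -0.02. The dim probes of Hadh and Abcd2 gave smaller differences without background correction (0.29 and -0.32).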
